A study of Mus musculus with 12 samples.

Results

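The cytosolic ribosomal protein genes were taken from a gene expression table of mouse embryonic stem cells that lacked the helicase DHX36, the helicase FANCJ or both. They were chosen by name alone, as every gene called Rpl, Rps or Rplp with a number, together with Rpsa, and leaving out names with -ps, which mark pseudogene-like copies, and the kinases named Rps6k. The rule found 84 genes of 32285 in the table, 52 of the large ribosomal subunit and 32 of the small subunit. Of these, 83 were abundant enough to be tested, and the exception was Rpl3l. The cells were of 4 genotypes with 3 libraries each: cells without DHX36 and FANCJ (double knockout or double KO), cells without DHX36 (DHX36 KO), cells without FANCJ (FANCJ KO) and wild type. All were cells of the 129/Ola-derived IB10 line, grown without treatment on gelatin in serum and leukaemia inhibitory factor with medium conditioned by rat liver cells, per the labels. The labels leave unsaid how many clones stand behind each knockout and whether replicate libraries are separate cultures, so p-values cover only the spread between these libraries, which may be a technical one.

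A ribosome holds a single copy of nearly every ribosomal protein, the stalk of the large subunit being the main exception, and cells make the proteins of both subunits in matched amounts. In mammals most of these genes have strong promoters, often without a TATA box, and their mRNAs begin with a C followed by a run of pyrimidines, the 5′ terminal oligopyrimidine or TOP motif, through which the TOR pathway and the protein Larp1 control their translation. A few genes have paralogs, such as Rpl22l1, Rpl39l and Rpl10l, whose proteins can take the place of the usual one in some ribosomes and which are known in mouse from early development or the male germ line. Both helicases unwind G-quadruplexes, stacked structures of guanine-rich nucleic acid, DHX36 in RNA and DNA and FANCJ, the product of Brip1, in DNA.

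Promoter sequences of RefSeq (GRCm38.p6) are given to show both kinds of start among the members, with and without a pyrimidine run. Rpl22l1, Rpl39l, Rplp0 and Rpl38 are shown because their levels stood apart, Rps10 for its G-quadruplex motif, and Rpl15, Rplp2 and Rps6 as further examples of the run. The table held windows for 64 members. The first set shows the 10 bases before and the first 10 bases from the annotated start, with the pyrimidine run from a C at the start base in capitals, for 5 members with such a run and 3 without.
Rpl38: aagcctcgttCTTTCCCCgt
Rps10: gcgcacgcccCTTCCTTTCC
Rps6: gaagtcgggcCTCTTTTTCg
Rpl15: agaaagccttCTTCCTTTCC
Rplp2: cagcgtcttcCTTTCgccgc
Rpl22l1: gcgcaagcccgttctcttcc
Rpl39l: aggcctttccggatttccgg
Rplp0: cgggtttcgaggaccgcctg
A C at the annotated start followed by at least 4 more C or T was found in 13 of the members' 76 windows (17.1%), against 823 of all 32851 windows (2.51%). The RefSeq starts need not be those used in these cells, and the GENCODE genes for Rpl22l1, Rpl38, Rps10, Rpl15, Rplp2 and Rps6 begin further upstream, so no match says only that these letters are not in this window.

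The 250 bases before the RefSeq start are shown for 5 of these, with motifs in capitals.
Rpl22l1 (chr3:28805258-28805507, plus strand): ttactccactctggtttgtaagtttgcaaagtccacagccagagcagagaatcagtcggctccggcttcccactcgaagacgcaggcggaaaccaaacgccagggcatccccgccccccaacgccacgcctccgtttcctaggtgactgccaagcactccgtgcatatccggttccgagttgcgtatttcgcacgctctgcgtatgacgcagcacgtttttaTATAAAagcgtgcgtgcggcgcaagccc
Rpl39l (chr16:10169978-10170227, plus strand): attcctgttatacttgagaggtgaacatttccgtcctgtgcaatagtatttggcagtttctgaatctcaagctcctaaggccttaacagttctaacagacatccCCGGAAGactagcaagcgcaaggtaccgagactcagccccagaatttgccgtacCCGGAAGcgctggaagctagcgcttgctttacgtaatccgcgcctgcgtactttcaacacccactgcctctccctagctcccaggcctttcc
Rplp0 (chr5:115559217-115559466, plus strand): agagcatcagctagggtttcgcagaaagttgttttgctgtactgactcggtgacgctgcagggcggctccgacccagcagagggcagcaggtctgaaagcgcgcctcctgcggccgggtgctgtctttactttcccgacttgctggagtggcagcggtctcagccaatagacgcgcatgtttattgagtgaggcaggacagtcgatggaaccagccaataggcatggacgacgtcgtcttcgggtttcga
Rpl38 (chr11:114668330-114668579, plus strand): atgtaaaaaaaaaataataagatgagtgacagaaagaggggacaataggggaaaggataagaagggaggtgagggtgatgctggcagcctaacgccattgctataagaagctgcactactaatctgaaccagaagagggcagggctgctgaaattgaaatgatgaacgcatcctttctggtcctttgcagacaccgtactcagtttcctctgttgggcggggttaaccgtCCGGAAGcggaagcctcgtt
Rps10 (chr17:27635245-27635494, minus strand): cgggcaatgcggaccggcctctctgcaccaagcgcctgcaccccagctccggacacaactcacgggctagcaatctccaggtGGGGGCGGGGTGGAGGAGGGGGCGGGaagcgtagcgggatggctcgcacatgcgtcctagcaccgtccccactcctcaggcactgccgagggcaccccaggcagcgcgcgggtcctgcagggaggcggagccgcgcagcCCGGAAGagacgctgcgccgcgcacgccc
The whole Rps10 stretch lies inside the GENCODE gene, and the marked motifs of Rpl22l1 and Rpl38 also lie inside their GENCODE genes. The capitals mark motifs before the RefSeq start. These are TATAAA for Rpl22l1, CCGGAAG for Rpl39l, Rpl38 and Rps10, and a G-quadruplex motif for Rps10. A G-quadruplex motif here is 4 runs of at least 3 G with 1 to 7 bases between them. In windows of 300 bases, from 250 before the start to 50 after it, and on both strands, CCGGAAG, a core of ETS factor sites, lay in 27 of 76 member windows (35.5%) and in 2910 of 32851 windows in all (8.86%). Members thus held this motif more often than windows in general, which was not tested. AAGATGGC, a core of YY1 sites, lay in 8 member windows (10.5%) and in 903 of all windows (2.75%). TATAAA on the gene's own strand lay in 6 member windows (7.89%) and in 2733 of all (8.32%). The G-quadruplex motif, on either strand, lay in 10 member windows (13.2%) and in 6110 of all (18.6%). In transcripts on the sense strand, 6 of 83 members held one (7.23%), against 2788 of 12257 genes tested (22.7%), where member transcripts were shorter, with a median of 914 bases against 3148 bases. These matches are descriptions of the sequence and not binding sites.

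Whole-number counts per gene were deposited, made by a protocol like CEL-Seq2, which reads the 3′ ends of polyadenylated transcripts. Gene totals were 4284785 to 14721931 per library, with all double KO libraries deeper than any of wild type. Levels are given as CPM, counts scaled to a common total after normalisation by trimmed means, and describe a gene's part of the RNA counted, not an amount per cell. Dhx36 measured 12.2, 15.1 and 14.5 CPM in double KO libraries, 10.9, 8.84 and 11.6 CPM in DHX36 KO cells, 51.5 to 57.97 CPM in FANCJ KO cells and 50.1 to 57.6 CPM in wild type. The targeted gene was low in the libraries labelled as lacking it and not in the others. Brip1 measured at most 0.744 CPM in libraries lacking FANCJ, against 6.45 to 7.42 CPM in DHX36 KO cells and 6.72 to 7.03 CPM in wild type. The cells carried the markers of their type. Markers of embryonic stem cells, all 8 of them tested, summed to 5879 to 5949 CPM in double KO cells, 4861 to 5098 in DHX36 KO cells, 3879 to 4108 in FANCJ KO cells and 4363 to 4456 in wild type. Of these 8, 6 rose in double KO cells and 2 rose in DHX36 KO cells. None passed the test in FANCJ KO cells, where 3 had an unadjusted p under 0.05 in edgeR. Fibroblast markers summed to 29.6 to 35.00 CPM in double KO cells, 72.5 to 82.4 in DHX36 KO cells, 80.7 to 86.2 in FANCJ KO cells and 86.6 to 92.3 in wild type, while Dcn, Lum and Postn were at or below 0.399 CPM in every library. Of the 4 fibroblast markers tested, 1 rose and 3 fell in double KO cells, and 1 rose and 1 fell in DHX36 KO cells. Their median log2 fold change was -1.19 in double KO cells and 0.41 in DHX36 KO cells. The sum in DHX36 KO cells was thus lower while the median was positive. Col1a1 fell there, at -0.72 (adjusted p = 1.75e-05 in edgeR). Primitive endoderm markers summed to 355 to 414 CPM in double KO cells, 393 to 421 in DHX36 KO cells, 441 to 467 in FANCJ KO cells and 341 to 440.2 in wild type, and of these 7 markers 3 rose in double KO cells, 2 rose and 1 fell in DHX36 KO cells, and 4 rose in FANCJ KO cells. The median log2 fold change over the 7 was 0.16 in double KO cells, 0.074 in DHX36 KO cells and 0.92 in FANCJ KO cells. Of all genes tested, 33.9% changed in double KO cells, 24.4% in DHX36 KO cells and 2.07% in FANCJ KO cells. Trophoblast markers summed to 75.01 to 78.5 CPM in double KO cells, 55.1 to 63.3 in DHX36 KO cells, 122 to 130.4 in FANCJ KO cells and 97.1 to 105 in wild type. Of the 4 trophoblast markers tested, 1 rose and 2 fell in double KO cells, 2 fell in DHX36 KO cells and 1 rose in FANCJ KO cells. The part of these marker differences in the results was not tested.

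Ribosomal protein genes as a whole took a smaller part of the counts in cells lacking DHX36 than in wild type. Their share was 7.23, 7.47 and 7.82% in the double KO libraries, 7.77, 7.70 and 7.32% in DHX36 KO cells, 7.97, 7.95 and 7.86% in FANCJ KO cells and 8.38, 8.74 and 7.91% in wild type. The means were 7.51% ± 0.298 in double KO cells, 7.60% ± 0.245 in DHX36 KO cells, 7.92% ± 0.0578 in FANCJ KO cells and 8.34% ± 0.416 in wild type (SD, n = 3 each). Every library of double KO cells and of DHX36 KO cells lay below the lowest wild-type library, by as little as 0.09 percentage points in double KO cells, and the FANCJ KO libraries overlapped wild type. With 3 libraries a group the smallest exact two-sided permutation p is 0.10, so that the shares are given as a description. In bulk samples, fewer cells of a type and less RNA per cell cannot be told apart. Mitochondrially encoded genes moved the other way, at 11.9 to 13.2% of counts in double KO cells, 11.01 to 12.3% in DHX36 KO cells, 11.2 to 11.5% in FANCJ KO cells and 10.01 to 10.6% in wild type. With those genes left out of the total, the ribosomal protein share was 8.34 to 8.89% in double KO cells, 8.34 to 8.73% in DHX36 KO cells, 8.88 to 8.97% in FANCJ KO cells and 8.79 to 9.78% in wild type, and double KO cells then overlapped wild type. The part of mitochondrial transcripts in the lower share was otherwise not tested.

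**Figure D1:**
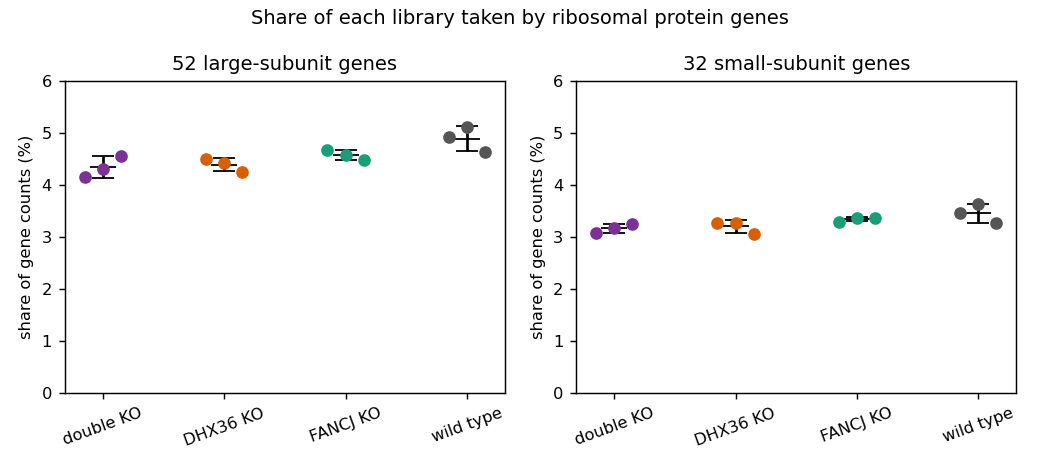
Share of each library's gene counts taken by ribosomal protein genes of the large and small subunit (percent, y axis), by genotype (x axis), with points for libraries and bars for the mean ± SD of 3 libraries. Large-subunit genes took 4.34% in double KO cells and 4.89% in wild type, and small-subunit genes 3.17% in double KO cells and 3.45% in wild type.

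Both subunits had a lower mean share in each knockout than in wild type. Large-subunit genes took 4.34% ± 0.211 of counts in double KO cells, 4.39% ± 0.127 in DHX36 KO cells, 4.58% ± 0.0908 in FANCJ KO cells and 4.89% ± 0.238 in wild type (SD, n = 3 each). Small-subunit genes took 3.17% ± 0.0872 in double KO cells, 3.20% ± 0.121 in DHX36 KO cells, 3.35% ± 0.0423 in FANCJ KO cells and 3.45% ± 0.179 in wild type. The ratio of large-subunit to small-subunit counts was 1.34 to 1.40 in double KO cells, 1.35 to 1.39 in DHX36 KO cells, 1.33 to 1.42 in FANCJ KO cells and 1.41 to 1.42 in wild type. The wild-type ratios lay above all double and DHX36 KO ratios and overlapped those of FANCJ KO cells.

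Gene by gene, most ribosomal protein mRNAs were slightly lower in cells without DHX36. A gene is said to have changed where its adjusted p in edgeR's quasi-likelihood test was under 0.05, with adjustment over all 12765 genes tested. In DHX36 KO cells 21 of 83 members changed against wild type, 2 upwards and 19 downwards, where 24.4% of all genes tested changed (12.8% up and 11.6% down). The members' share of 25.3% changed was thus close to that of all genes, and its split between directions was not, with 22.9% down. Genes as abundant as most members also fell often, and of the 302 other genes at or above the members' lower quartile of CPM 28.5% fell and 11.3% rose. The median log2 fold change was -0.18 over 51 large-subunit genes and -0.13 over 32 small-subunit genes, against 0.0045 over all genes tested and -0.081 over the other abundant genes. Of the members, 76 of 83 had a negative value and 61 lay within 0.25 of 0 on the log2 scale. All 3 DHX36 KO libraries lay below all wild-type libraries in 32 members and above them in 2, where this held for 18.1% and 19.6% of all genes. Of the 302 other abundant genes, 107 lay below and 52 above.

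In double KO cells 30 members changed against wild type, 2 upwards and 28 downwards, where 33.9% of all genes changed (16.6% up and 17.3% down). The median log2 fold change was -0.18 for the large subunit and -0.19 for the small subunit, against 0.0063 over all genes, and 74 of 83 members had a negative value. Among the 302 other abundant genes 31.8% fell and 12.3% rose, with a median of -0.10. The 3 double KO libraries lay below all wild-type libraries in 31 members and above them in 2, where this held for 22.1% and 23.1% of all genes. Of the 302 other abundant genes, 119 lay below and 50 above. In FANCJ KO cells 2 members changed, 1 in each direction, where 2.07% of all genes changed (1.45% up and 0.619% down). The FANCJ KO medians were -0.072 for the large and -0.046 for the small subunit. The FANCJ KO libraries lay below all wild-type libraries in 10 members and above them in 2, where this held for 8.7% and 10% of all genes. These comparisons share the wild-type libraries, so their values are given side by side and not set against each other. The counts rest in part on single libraries: without wild-type replicate 2, 10 of 83 members changed in DHX36 KO cells, where 19.2% of all genes did, and 12 in double KO cells, where 26.9% did. Without wild-type replicate 3 the DHX36 KO count was 32, where 20.7% of all genes changed. The double KO count was 15 without double KO replicate 2, where 27% of all genes changed, and 18 without double KO replicate 1, where 28.3% did.

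**Figure D2:**
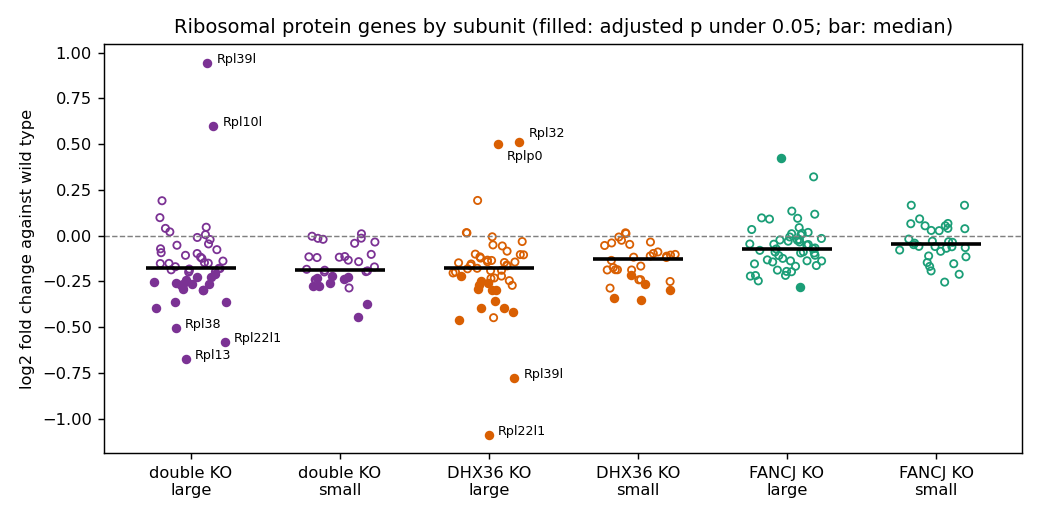
Log2 fold change against wild type (y axis) of each ribosomal protein gene tested, by genotype and subunit (x axis), with filled points for genes of adjusted p under 0.05 and bars for medians. Large-subunit paralogs lie farthest from 0, with Rpl39l at 0.95 in double KO cells and Rpl22l1 at -1.09 in DHX36 KO cells, while most other points lie between 0 and -0.25.

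**Figure D3:**
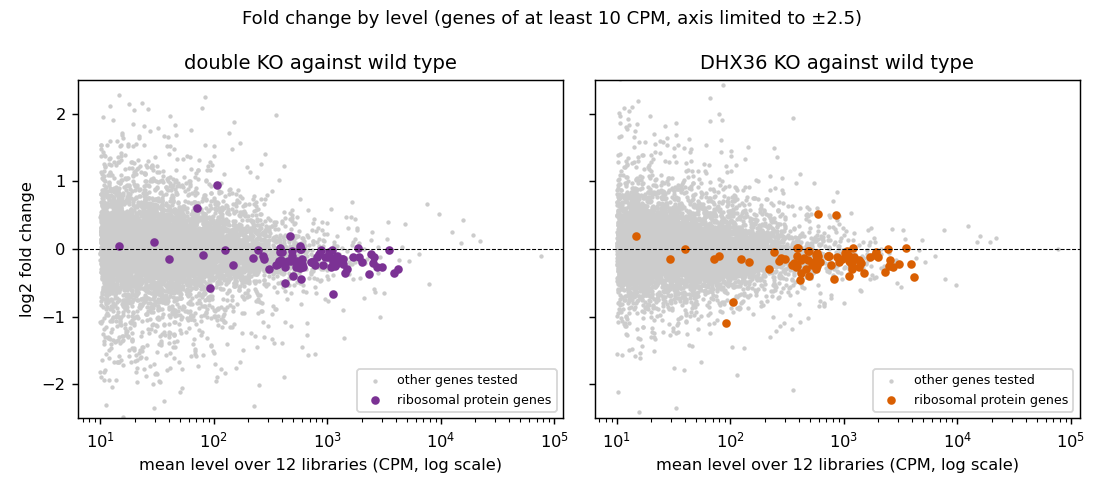
Log2 fold change against wild type (y axis) by mean CPM over 12 libraries (x axis, log scale) in double KO cells (left) and DHX36 KO cells (right), for ribosomal protein genes (coloured) and other genes tested (grey). Most ribosomal protein genes are abundant and sit just below 0. Other abundant genes spread on both sides but also lean downwards, with 189 of 302 negative in double KO cells and 188 of 302 in DHX36 KO cells.

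The largest changes were those of 3 paralogs of the large subunit, Rpl22l1, Rpl39l and Rpl10l, and of Rpl13. Rpl22l1 (chr3:28805436-28807424, plus strand) encodes a paralog of Rpl22, a large-subunit protein that in mouse is known to bind and lower the Rpl22l1 mRNA. It measured 69.9, 86.1 and 74.1 CPM in double KO cells, 52.5, 53.99 and 55.5 CPM in DHX36 KO cells, 129, 120.2 and 119 CPM in FANCJ KO cells and 111, 120.0 and 113 CPM in wild type. Every DHX36 KO library was below every double KO library, and both were below wild type, while FANCJ KO cells overlapped it. Against wild type the log2 fold change was -0.58 (SE 0.089, adjusted p = 2.86e-05) in double KO cells, -1.09 (SE 0.093, adjusted p = 2.66e-08) in DHX36 KO cells and 0.10 (SE 0.090, adjusted p = 0.670) in FANCJ KO cells. Double KO cells stood above DHX36 KO cells, with a log2 fold change of 0.51 (SE 0.090, adjusted p = 0.000328). Rpl22 itself did not pass the test in any of these, and averaged 389 ± 13.4 CPM in double KO cells, 406 ± 25.1 in DHX36 KO cells, 393 ± 11.96 in FANCJ KO cells and 401 ± 30.4 in wild type (SD, n = 3 each). Counts of Rpl22l1 per count of Rpl22 were 0.197 ± 0.0231 in double KO cells, 0.133 ± 0.00630 in DHX36 KO cells, 0.312 ± 0.00489 in FANCJ KO cells and 0.287 ± 0.0113 in wild type. Genes differ in how well their 3′ ends are counted, so such a ratio serves only to compare libraries.

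Rpl39l (chr16:10170226-10174911, plus strand) encodes a paralog of Rpl39, a small protein of the large subunit's exit tunnel, and in mouse is needed for normal sperm formation. It measured 163, 179 and 175 CPM in double KO cells, 52.9, 55.6 and 48.3 CPM in DHX36 KO cells, 106, 120.2 and 109 CPM in FANCJ KO cells and 94.99, 94.8 and 78.2 CPM in wild type. No 2 genotypes overlapped, with DHX36 KO cells lowest and double KO cells highest. Against wild type the log2 fold change was 0.95 (SE 0.093, adjusted p = 7.91e-08) in double KO cells, -0.78 (SE 0.10, adjusted p = 4.5e-06) in DHX36 KO cells and 0.32 (SE 0.10, adjusted p = 0.0894) in FANCJ KO cells. Double KO cells exceeded DHX36 KO cells 3.30-fold, a log2 difference of 1.72 (SE 0.094, adjusted p = 5.07e-11), and FANCJ KO cells by 0.62 (SE 0.090, adjusted p = 1.15e-05). Rpl39 on the X chromosome had a log2 fold change of -0.27 (SE 0.093, adjusted p = 0.0317) in double KO cells, a call lost without wild-type replicate 2 (adjusted p = 0.243), without double KO replicate 1 (adjusted p = 0.0707) and without its replicate 3 (adjusted p = 0.120). It stood at -0.033 (adjusted p = 0.838) in DHX36 KO cells and -0.0075 (adjusted p = 0.984) in FANCJ KO cells. Counts of Rpl39l per count of Rpl39 were 0.184 ± 0.0125 in double KO cells, 0.0475 ± 0.00472 in DHX36 KO cells, 0.0996 ± 0.00207 in FANCJ KO cells and 0.0804 ± 0.0152 in wild type.

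Rpl10l (chr12:66283379-66284401, minus strand) is a retrocopy of the X-linked Rpl10 that is needed for male meiosis in mouse. It measured 81.4, 92.9 and 97.4 CPM in double KO cells, 54.9, 53.99 and 52.8 CPM in DHX36 KO cells, 81.3, 78.6 and 80.5 CPM in FANCJ KO cells and 56.5, 63.5 and 58.8 CPM in wild type. The libraries lacking FANCJ were all above those with it, and DHX36 KO cells lay just below wild type. Against wild type the log2 fold change was 0.60 (SE 0.091, adjusted p = 2.52e-05) in double KO cells, -0.15 (SE 0.094, adjusted p = 0.279) in DHX36 KO cells and 0.43 (SE 0.094, adjusted p = 0.0189) in FANCJ KO cells. The FANCJ KO call was lost without wild-type replicate 1 (adjusted p = 0.0847), without wild-type replicate 3 (adjusted p = 0.0527), without FANCJ KO replicate 1 (adjusted p = 0.0692) and without its replicate 3 (adjusted p = 0.0541). Double KO cells were above DHX36 KO cells by 0.75 (SE 0.088, adjusted p = 2.88e-06). Rpl10 was counted at only 22.8 to 37.5 CPM and a copy named Rpl10-ps3, which the naming rule leaves out, at 152 to 338 CPM. The treatment of reads that match several copies is not given in the sources used here, and Rpl10, Rpl10l and the copy are uncertain as single genes.

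**Figure D4:**
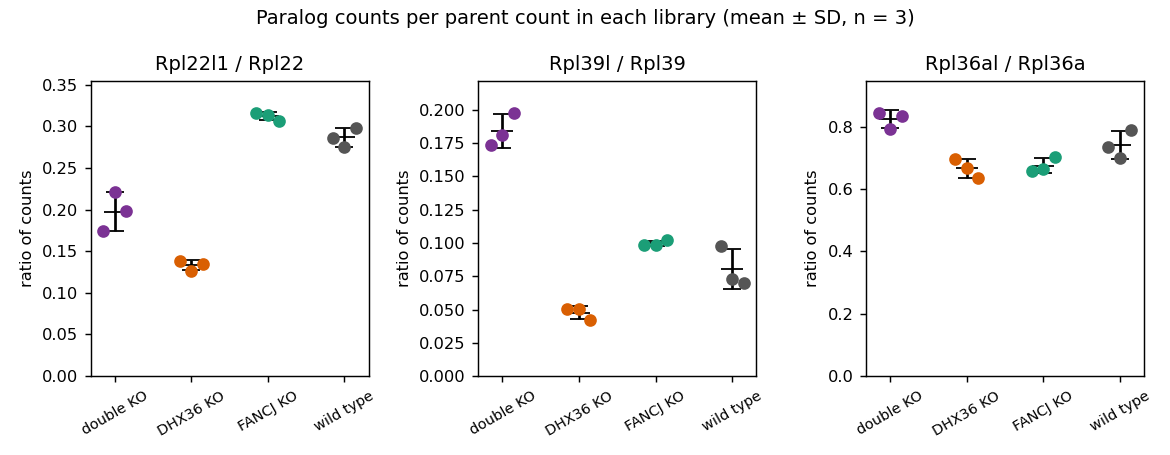
Counts of each paralog per count of the gene it resembles (y axis), by genotype (x axis), with points for libraries and bars for the mean ± SD of 3 libraries. The ratio of Rpl39l to Rpl39 is 0.184 ± 0.0125 in double KO cells, 0.0475 ± 0.00472 in DHX36 KO cells and 0.0804 ± 0.0152 in wild type.

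The other paralogs moved less. Rpl36al, an autosomal retrocopy of the X-linked Rpl36a, had a log2 fold change of -0.30 (SE 0.079, adjusted p = 0.00809) in DHX36 KO cells, lost without DHX36 KO replicate 3 (adjusted p = 0.0568), and -0.14 (adjusted p = 0.180) in double KO cells. Rpl36a changed by -0.29 (SE 0.080, adjusted p = 0.00667) in double KO cells and stood at -0.15 (adjusted p = 0.190) in DHX36 KO cells. Counts of Rpl36al per count of Rpl36a were 0.845, 0.792 and 0.835 in double KO cells, 0.697, 0.667 and 0.635 in DHX36 KO cells, 0.658, 0.664 and 0.703 in FANCJ KO cells and 0.734, 0.701 and 0.789 in wild type, so that double KO cells lay above all others. Rps27l, which p53 is known to induce, did not pass the test, at -0.035 (adjusted p = 0.791) in double KO cells, -0.035 (adjusted p = 0.811) in DHX36 KO cells and 0.17 (adjusted p = 0.393) in FANCJ KO cells. Rps27 was counted at 2.06 to 5.05 CPM and a retrogene named Rps27rt, outside the naming rule, at 341 to 477 CPM, and how reads that match both were assigned is not stated. Rps27rt had a log2 fold change of -0.36 (adjusted p = 0.00730) in double KO cells and -0.28 (adjusted p = 0.0431) in DHX36 KO cells. Rpl7l1 stood at -0.022 (adjusted p = 0.859) in double KO cells and -0.16 (adjusted p = 0.164) in DHX36 KO cells. Rpl7 had a log2 fold change of -0.21 (adjusted p = 0.0496) in double KO cells and -0.26 (adjusted p = 0.0229) in DHX36 KO cells, and the first call was lost in 14 of 21 alternative analyses. The DHX36 KO call was lost without wild-type replicate 2 (adjusted p = 0.117), DHX36 KO replicate 1 (adjusted p = 0.0514) or its replicate 3 (adjusted p = 0.0779), and with library totals alone (adjusted p = 0.0504). Rpl3l, the muscle paralog of Rpl3, had 1 to 11 counts per library and was not tested.

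The stalk of the large subunit, which recruits elongation factors, is built from Rplp0 with Rplp1 and Rplp2. Rplp0 (chr5:115559467-115563727, plus strand) measured 669.8, 728 and 836 CPM in double KO cells, 1169, 1168 and 996 CPM in DHX36 KO cells, 731, 771 and 727 CPM in FANCJ KO cells and 833, 798 and 725 CPM in wild type. DHX36 KO cells stood above all other libraries, and the other 3 genotypes overlapped. Against wild type its log2 fold change was 0.50 (SE 0.090, adjusted p = 0.000301) in DHX36 KO cells, -0.077 (SE 0.090, adjusted p = 0.545) in double KO cells and -0.081 (SE 0.090, adjusted p = 0.737) in FANCJ KO cells. The partner proteins went the other way, with -0.36 (SE 0.10, adjusted p = 0.00938) for Rplp1 and -0.46 (SE 0.15, adjusted p = 0.0321) for Rplp2 in DHX36 KO cells. The Rplp1 call was lost without wild-type replicate 2 (adjusted p = 0.0539). The Rplp2 call was lost without any 1 of wild-type replicates 1 and 2 and the DHX36 KO libraries, with adjusted p of 0.0756 without wild-type replicate 1, 0.100 without wild-type replicate 2, and 0.0966, 0.0534 and 0.0583 without DHX36 KO replicates 1, 2 and 3. In double KO cells Rplp1 stood at -0.29 (SE 0.10, adjusted p = 0.0234) and Rplp2 at -0.19 (adjusted p = 0.355), and the Rplp1 call was lost without wild-type replicate 1 (adjusted p = 0.0826), wild-type replicate 2 (0.125), double KO replicate 1 (0.0512) or its replicate 2 (0.124). Rplp2 was uneven over the double KO libraries, at 329.9, 324 and 591 CPM. Without double KO replicate 3, the highest of them, its log2 fold change was -0.53 (adjusted p = 0.000302), and without replicate 1 or 2 it was -0.050 or -0.040.

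Rpl32 (chr6:115805505-115808747, minus strand), whose mRNA often serves as a reference in other assays, was also higher in DHX36 KO cells. It measured 461, 495 and 500.2 CPM in double KO cells, 799, 814 and 808 CPM in DHX36 KO cells, 536, 559.8 and 497 CPM in FANCJ KO cells and 578, 563 and 560.2 CPM in wild type. DHX36 KO cells were above all others with no overlap, and double KO cells were below wild type. Against wild type the log2 fold change was 0.51 (SE 0.074, adjusted p = 2.68e-05) in DHX36 KO cells, -0.22 (SE 0.074, adjusted p = 0.0227) in double KO cells and -0.095 (SE 0.074, adjusted p = 0.596) in FANCJ KO cells. The double KO call was lost without wild-type replicate 1 (adjusted p = 0.0687), without double KO replicate 1 (adjusted p = 0.102), with no expression filter (adjusted p = 0.0851) and with scaling to library totals alone (adjusted p = 0.0602). In DHX36 KO cells, Rplp0 and Rpl32 were the 2 members that rose.

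The 5S particle of the large subunit holds Rpl5 and Rpl11, which also bind Mdm2, the inhibitor of p53. Rpl5 measured 3921, 3729 and 3996 CPM in double KO cells, 3435, 3111 and 4165 CPM in DHX36 KO cells and 4649, 4668 and 4989 CPM in wild type. Its log2 fold change was -0.30 (SE 0.088, adjusted p = 0.0119) in double KO cells and -0.42 (SE 0.088, adjusted p = 0.00131) in DHX36 KO cells, and the double KO call was lost without double KO replicate 2 (adjusted p = 0.0537). In FANCJ KO cells Rpl5 stood at -0.11 (adjusted p = 0.608). Rpl11 had a log2 fold change of -0.23 (SE 0.086, adjusted p = 0.0452) in double KO cells, a call that held in 8 of 21 alternative analyses, -0.18 (adjusted p = 0.135) in DHX36 KO cells and -0.072 (adjusted p = 0.762) in FANCJ KO cells. Leaving out wild-type replicate 2, for example, gave Rpl11 an adjusted p of 0.214 in double KO cells.

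Among the other large-subunit genes, Rpl13 stepped down across the genotypes. Rpl13 (chr8:123102350-123105244, plus strand), a gene mutated in a human skeletal disorder, measured 888, 859 and 857 CPM in double KO cells, 1099.8, 1032 and 1019 CPM in DHX36 KO cells, 1122, 1166 and 1130.2 CPM in FANCJ KO cells and 1449, 1373 and 1327 CPM in wild type. No 2 genotypes overlapped, with double KO cells lowest and wild type highest. Against wild type the log2 fold change was -0.67 (SE 0.072, adjusted p = 2.43e-07) in double KO cells, -0.40 (SE 0.071, adjusted p = 0.000289) in DHX36 KO cells and -0.28 (SE 0.071, adjusted p = 0.0425) in FANCJ KO cells. The FANCJ KO call was lost in 13 of 21 alternative analyses, and leaving out wild-type replicate 1 gave an adjusted p of 0.179. The log2 fold change of double KO cells was -0.28 (SE 0.071, adjusted p = 0.00847) against DHX36 KO cells and -0.39 (SE 0.071, adjusted p = 0.000166) against FANCJ KO cells. The interaction, the effect of FANCJ loss in cells lacking DHX36 minus its effect in cells with DHX36, was 0.0041 (SE 0.10, adjusted p = 0.989).

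Rpl38 (chr11:114668524-114672331, plus strand), which in mouse embryos is needed for the translation of Hox mRNAs, fell in double KO cells. It measured 337, 309.8 and 339 CPM in double KO cells, 401, 438 and 410.2 CPM in DHX36 KO cells, 516, 555 and 361 CPM in FANCJ KO cells and 437, 501 and 462 CPM in wild type. Double KO cells were below every library of the other genotypes, and FANCJ KO replicate 3 was below the other libraries of its group. The log2 fold change was -0.51 (SE 0.11, adjusted p = 0.00131) against wild type and -0.54 (SE 0.11, adjusted p = 0.000621) against FANCJ KO cells. Against DHX36 KO cells it was -0.34 (SE 0.11, adjusted p = 0.0340), a call lost when any 1 library of either group was left out, with adjusted p from 0.0519 without DHX36 KO replicate 1 to 0.131 without double KO replicate 2.

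Rpl17 (chr18:74998558-75003381, plus strand), a protein at the mouth of the exit tunnel, fell in DHX36 KO cells and was higher in double KO cells than in either single knockout. It measured 554, 606 and 499.9 CPM in double KO cells, 406, 385 and 392 CPM in DHX36 KO cells, 457, 416 and 444 CPM in FANCJ KO cells and 509, 506 and 439 CPM in wild type. DHX36 KO cells were below all other libraries, and double KO cells and FANCJ KO cells each overlapped wild type. Against wild type the log2 fold change was 0.19 (SE 0.085, adjusted p = 0.0898) in double KO cells, -0.30 (SE 0.085, adjusted p = 0.0139) in DHX36 KO cells and -0.14 (SE 0.086, adjusted p = 0.454) in FANCJ KO cells. The DHX36 KO call was lost without wild-type replicate 1 (adjusted p = 0.0526), wild-type replicate 2 (adjusted p = 0.0510) or DHX36 KO replicate 2 (adjusted p = 0.0504). Double KO cells exceeded DHX36 KO cells by 0.49 (SE 0.085, adjusted p = 0.000263) and FANCJ KO cells by 0.33 (SE 0.085, adjusted p = 0.00366).

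**Figure D5:**
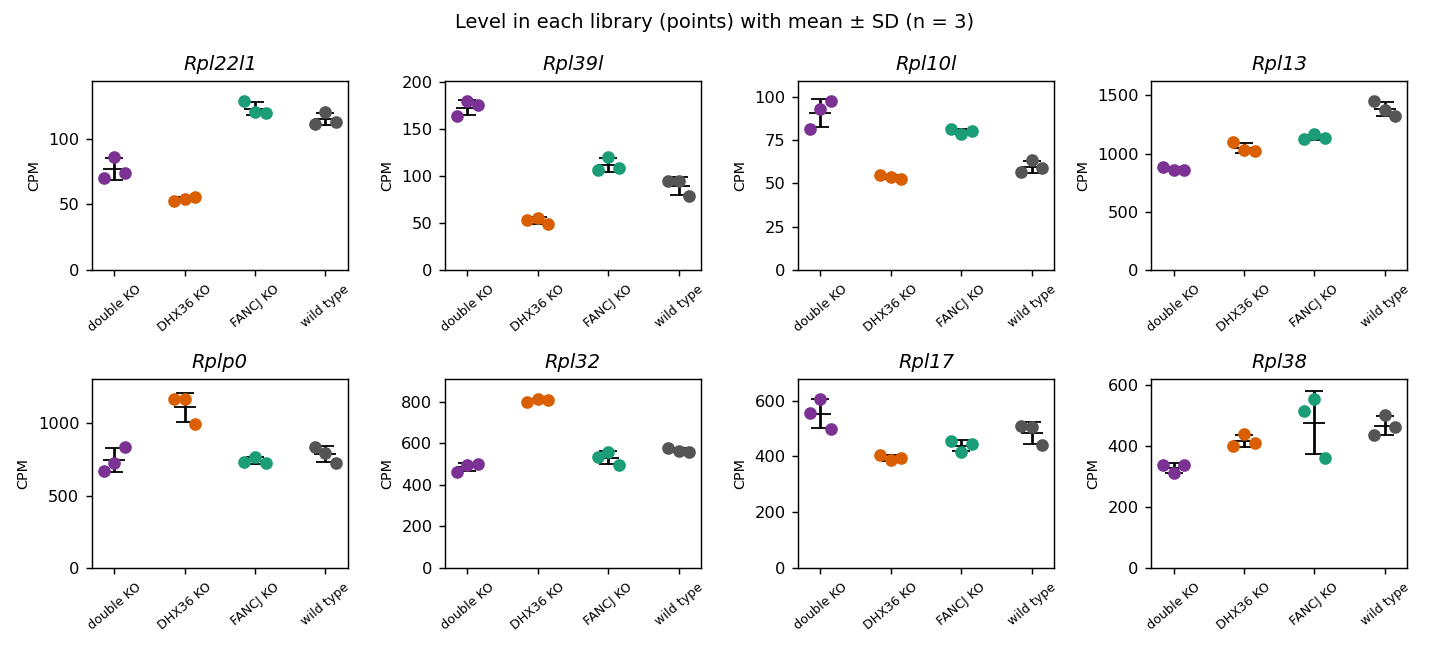
Level of 8 ribosomal protein genes in each library (CPM, y axis, from 0) by genotype (x axis), with bars for the mean ± SD of 3 libraries. Rpl39l and Rpl13 separate all genotypes, and Rpl10l separates the libraries lacking FANCJ from those with it. Rplp0 and Rpl32 stand apart in DHX36 KO cells, at 996 to 1169 CPM and 799 to 814 CPM.

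The remaining large-subunit changes were smaller. Rpl34 had a log2 fold change of -0.39 (SE 0.093, adjusted p = 0.00240) in double KO cells and -0.40 (SE 0.093, adjusted p = 0.00338) in DHX36 KO cells, with 445, 440.4 and 436 CPM in double KO cells, 479.7, 475 and 365 CPM in DHX36 KO cells and 581, 622 and 532 CPM in wild type. Rpl23, another Mdm2-binding protein, changed by -0.36 (SE 0.077, adjusted p = 0.000945) in double KO cells and -0.22 (adjusted p = 0.0414) in DHX36 KO cells, where the call held in 12 of 21 alternative analyses and was lost, for example, without wild-type replicate 2 (adjusted p = 0.173). Rpl27a changed by -0.36 (SE 0.10, adjusted p = 0.00601) in double KO cells, lost without wild-type replicate 2 (adjusted p = 0.0602). Rpl15, named after its values were seen and a gene mutated in human Diamond-Blackfan anaemia, a failure of red cell production, had -0.27 (adjusted p = 0.00729) in DHX36 KO cells and -0.15 (adjusted p = 0.106) in double KO cells.

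Small-subunit genes had no call upwards in any comparison and no value outside the range from -0.44 to 0.17 in any comparison with wild type. In double KO cells 9 of 32 fell (28.1%), where 17.3% of all genes and 31.8% of the other abundant genes fell. In DHX36 KO cells 5 of 32 fell (15.6%), where 11.6% of all genes and 28.5% of the other abundant genes fell. Rps19, the gene most often mutated in human Diamond-Blackfan anaemia, measured 487, 439 and 562 CPM in double KO cells, 653, 539 and 509 CPM in DHX36 KO cells, 573, 596 and 602 CPM in FANCJ KO cells and 639, 863 and 522 CPM in wild type. Its log2 fold change was -0.44 (SE 0.13, adjusted p = 0.0125) in double KO cells, lost without wild-type replicate 2 (adjusted p = 0.160) and without double KO replicate 2 (adjusted p = 0.0743), and -0.25 (adjusted p = 0.180) in DHX36 KO cells. Rps7, which binds Mdm2, measured 2111, 2152 and 1793 CPM in double KO cells, 2043, 2106 and 2045 CPM in DHX36 KO cells and 2386, 3108 and 2361 CPM in wild type. It changed by -0.38 (SE 0.095, adjusted p = 0.00399) in double KO cells and -0.34 (SE 0.095, adjusted p = 0.0107) in DHX36 KO cells, the second lost without wild-type replicate 2 (adjusted p = 0.0982). Rps3a1 changed by -0.26 (SE 0.083, adjusted p = 0.0185) in double KO cells, lost without wild-type replicate 2 (adjusted p = 0.0614) and without double KO replicate 2 (adjusted p = 0.0820), and by -0.35 (SE 0.083, adjusted p = 0.00341) in DHX36 KO cells. Rps26, at the channel where mRNA leaves the subunit, changed by -0.30 (adjusted p = 0.00828) in DHX36 KO cells, lost without wild-type replicate 2 (adjusted p = 0.0586). Rpsa did not pass the test, at -0.12 (adjusted p = 0.433) in double KO cells, -0.17 (adjusted p = 0.291) in DHX36 KO cells and 0.053 (adjusted p = 0.877) in FANCJ KO cells. Rps10, named after its values were seen because the sequence before its RefSeq start holds a G-quadruplex motif, measured 499.6, 552 and 507 CPM in double KO cells, 591, 579.9 and 568 CPM in DHX36 KO cells and 653, 642 and 591 CPM in wild type, with a log2 fold change of -0.28 (SE 0.075, adjusted p = 0.00699) in double KO cells and -0.12 (adjusted p = 0.276) in DHX36 KO cells. The windows of 8 members held this motif on either strand: Rpl31, Rpl36al, Rpl3l, Rpl6, Rps10, Rps19, Rps21 and Rpsa. Among those described above, Rps10 and Rps19 fell in double KO cells, and Rpsa and Rpl36al did not pass the test. Rpl3l was not tested. Whether the motif goes with a lower level was not tested.

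Double KO cells were also compared with each single knockout. Against DHX36 KO cells 9 members changed, 4 upwards and 5 downwards, where 19.7% of all genes changed (8.28% up and 11.4% down). The 4 that rose were the paralogs Rpl39l, Rpl10l and Rpl22l1 and, beside them, Rpl17. Among the 5 that fell were Rpl32 at -0.73 (adjusted p = 3.37e-07), Rplp0 at -0.58 (adjusted p = 8.1e-05), Rpl38 and Rpl13. Against FANCJ KO cells 18 members changed, 2 upwards and 16 downwards, where 36.8% of all genes changed (18.3% up and 18.5% down). The 2 that rose were Rpl39l and Rpl17, and the largest falls were in Rpl22l1 at -0.68 (adjusted p = 2.72e-06), Rpl38, Rpl13, Rps7 at -0.34 (adjusted p = 0.00673) and Rps26 at -0.34 (adjusted p = 0.00190). Without FANCJ KO replicate 1, or without double KO replicate 1, the count was 11, where 30.5% and 30.9% of all genes changed. Scaling to library totals alone gave 10 members with 70.0% of them down, against 88.9% down with trimmed means. With library totals alone 37% of all genes changed.

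The interaction passed the test in 5 members, 3 positive and 2 negative, all of the large subunit, where 8.79% of all genes passed (2.73% positive and 6.06% negative). It was 1.40 (SE 0.13, adjusted p = 5.26e-07) for Rpl39l, 0.63 (SE 0.12, adjusted p = 0.00154) for Rpl17 and 0.41 (SE 0.13, adjusted p = 0.0476) for Rpl22l1. It was -0.64 (SE 0.10, adjusted p = 0.000376) for Rpl32 and -0.50 (SE 0.13, adjusted p = 0.0155) for Rplp0. For Rpl39l, Rpl17 and Rpl22l1, FANCJ loss thus went with a higher level relative to its effect in cells with DHX36, and for Rpl32 and Rplp0 with a lower one. The Rplp0 value was lost without double KO replicate 1 (adjusted p = 0.0545). The Rpl22l1 value held in 7 of 20 alternative analyses and was lost without any 1 library other than double KO replicate 1, with an adjusted p of 0.148 without double KO replicate 2. Clone and genotype cannot be told apart here, since the labels name no clones.

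Outside the naming rule, Fau, a small-subunit protein made as a fusion with a ubiquitin-like protein, and Rack1, a scaffold on the small subunit, did not pass the test in double KO cells. Fau stood at -0.13 (adjusted p = 0.352) and Rack1 at -0.18 (adjusted p = 0.109).

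Other genes of the translation machinery were read in the same fit. Of 20 translation factors and other genes with TOP mRNAs, 1 rose and 9 fell in double KO cells (median -0.21) and 0 rose and 9 fell in DHX36 KO cells (median -0.18). None passed the test in FANCJ KO cells, where 2 had an unadjusted p under 0.05 in edgeR and the median was -0.038. The list had 50% changed in double KO cells and 45% in DHX36 KO cells, against 33.9% and 24.4% of all genes tested. Among the 302 other abundant genes 44% and 39.7% changed, though these were not matched to the levels of this list. In FANCJ KO cells 2.07% of all genes changed. Pabpc1, the poly(A)-binding protein, measured 711, 726 and 756 CPM in double KO cells, 718, 708 and 731 CPM in DHX36 KO cells, 1263, 1299 and 1362 CPM in FANCJ KO cells and 1309, 1251 and 1194 CPM in wild type. Both genotypes lacking DHX36 lay below all libraries with DHX36, at -0.77 (adjusted p = 3.57e-08) in double KO cells and -0.80 (adjusted p = 6.01e-08) in DHX36 KO cells. Naca, of the nascent polypeptide-associated complex, stood at -0.54 (adjusted p = 0.000582) in double KO cells and -0.41 (adjusted p = 0.00792) in DHX36 KO cells. Eif3k, an initiation factor subunit, stood at -0.52 (adjusted p = 0.00393) in double KO cells and -0.47 (adjusted p = 0.0111) in DHX36 KO cells. Eif4a2, an initiation factor helicase, was the riser in double KO cells at 0.54 (adjusted p = 0.000144).

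Ribosome assembly and ribosomal RNA processing factors changed in both directions. Of 38 genes, 2 rose and 9 fell in double KO cells (median -0.090), 4 rose and 4 fell in DHX36 KO cells (median -0.064), and 0 rose and 1 fell in FANCJ KO cells (median -0.079). These were 28.9, 21.1 and 2.63% of the list, where 33.9, 24.4 and 2.07% of all genes changed. Rrp9, which binds the U3 small nucleolar RNA, stood at -0.48 (adjusted p = 0.00179) in double KO cells, -0.44 (adjusted p = 0.00574) in DHX36 KO cells and -0.46 (adjusted p = 0.0347) in FANCJ KO cells. Nop2, an rRNA methyltransferase, stood at -0.62 (adjusted p = 1.11e-05) in double KO cells, and Dkc1, the pseudouridine synthase, at 0.43 (adjusted p = 0.000922). Of 14 genes of RNA polymerase I transcription, 2 rose and 1 fell in double KO cells, 1 rose and 3 fell in DHX36 KO cells and none passed in FANCJ KO cells, with 2 at an unadjusted p under 0.05. This list thus had 21.4% changed in double KO cells and 28.6% in DHX36 KO cells. Polr1e, a polymerase subunit, stood at -0.62 (adjusted p = 0.00140) in double KO cells and -0.45 (adjusted p = 0.0224) in DHX36 KO cells, while Polr1a, the largest subunit, stood at 0.35 (adjusted p = 0.0129) in double KO cells and 0.37 (adjusted p = 0.0136) in DHX36 KO cells. Of 11 chaperones and importers of ribosomal proteins, 2 fell in double KO cells and 2 in DHX36 KO cells, and none passed in FANCJ KO cells, with 2 at an unadjusted p under 0.05. The 2 changed in each genotype lacking DHX36 are 18.2% of the list, below the shares of all genes.

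Genes of TOR signalling, TOP mRNA binding and Myc also moved both ways. Of 19, 5 rose and 4 fell in double KO cells, 4 rose and 4 fell in DHX36 KO cells and none passed in FANCJ KO cells, with 4 at an unadjusted p under 0.05. The list had 47.4% changed in double KO cells and 42.1% in DHX36 KO cells, where 33.9% and 24.4% of all genes changed. Larp1, which binds TOP mRNAs, had -0.40 (adjusted p = 0.00297) in double KO cells and -0.29 (adjusted p = 0.0343) in DHX36 KO cells. Eif4ebp1, the TOR-controlled inhibitor of Eif4e, had 0.33 (adjusted p = 0.00486) in double KO cells and 0.35 (adjusted p = 0.00544) in DHX36 KO cells. Tsc2, an inhibitor upstream of TOR, had -0.32 (adjusted p = 0.0158) in double KO cells and -0.58 (adjusted p = 0.000203) in DHX36 KO cells, and Myc had -0.57 (adjusted p = 0.00108) in double KO cells. Of 9 hosts of small nucleolar RNAs, which often carry TOP motifs, 2 rose in double KO cells and 2 fell in DHX36 KO cells, with Snhg3 at -1.18 (adjusted p = 1.45e-05) in DHX36 KO cells and -0.34 (adjusted p = 0.0999) in double KO cells. The 2 hosts changed in each of these genotypes are 22.2% of the list, below the shares of all genes. Of 15 p53 targets, 4 rose and 5 fell in double KO cells, 4 rose and 4 fell in DHX36 KO cells and 6 rose in FANCJ KO cells, with Mdm2 at -0.32 (adjusted p = 0.00505) in double KO cells, -0.58 (adjusted p = 3.04e-05) in DHX36 KO cells and 0.61 (adjusted p = 0.000236) in FANCJ KO cells. The targets had 60% changed in double KO cells, 53.3% in DHX36 KO cells and 40% in FANCJ KO cells. In FANCJ KO cells 2.07% of all genes changed.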

How the data were processed

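The authors deposited 1 table of raw whole-number counts; the submitters' processing notes name BWA and the builds GRCm38 and hg38. Whether a count is a read or a molecule, and how strand and reads with several alignments were handled, is not given in the sources used here. The table held 32285 genes and 92 spike-in rows, which took 4 to 30 counts per library and were left out. Gene coordinates come from GENCODE M21 (GRCm38), where 32235 identifiers and all 84 members matched.

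The count test was that of edgeR 4.0.16, run in R 4.3.3 (quasi-likelihood F test, trimmed-mean normalisation, default expression filter by genotype, two-sided). All 12 libraries entered 1 model of genotype, and p-values of all 12765 genes that passed the filter were adjusted after Benjamini and Hochberg, with 0.05 as the threshold. Standard errors (SE) were computed as the log2 fold change over the square root of F. The fit was tested on simulated data. CPM use the normalised totals. DESeq2 1.42.0, other scalings, filters, thinned counts, leaving out each library and a replicate block were alternatives, the last described with the alternatives below; those for the interaction and for double KO cells against single knockouts, gene by gene, were chosen after seeing the data. Replicates differed beyond sampling noise (4.11 to 12.3 chi-square units per degree of freedom), so no library is a copy of another.

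Members and gene lists were chosen with earlier results of these data known. Named members are the 8 largest rises and falls in each comparison with wild type, up to 6 a direction in the other contrasts, the paralogs with their parents, Rpl5, Rpl11, the stalk genes and Rpsa; other lists name up to 4 changed genes of at least 20 CPM. Results on 2 genes are not reported here.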

Additional observations from a re-analysis of the deposited data

Results flagged for a closer look

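A test of the difference itself was passed by 5 ribosomal protein genes, in which the effect of FANCJ loss was not the same in cells without DHX36 as in cells with it (edgeR, adjusted p under 0.05). This is 6.02% of the 83 members tested, below the 8.79% of all genes that passed. The log2 interaction was 1.40 for Rpl39l, 0.63 for Rpl17, 0.41 for Rpl22l1, -0.64 for Rpl32 and -0.50 for Rplp0. Its cause was not tested.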

How the results depend on the processing

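Of the 21 members that changed in DHX36 KO cells against wild type, 9 changed in every one of 21 alternatives, as did 10 of 30 in double KO cells and 0 of 2 in FANCJ KO cells. Leaving out 1 library at a time gave 10 to 32 changed members in DHX36 KO cells, 12 to 34 in double KO cells, 0 to 2 in FANCJ KO cells, 7 to 9 for double KO cells against DHX36 KO cells, 11 to 19 against FANCJ KO cells and 4 to 5 for the interaction, while the share of all genes that changed against wild type ran from 19.2 to 24.2% in DHX36 KO cells, 26.9 to 33.8% in double KO cells and 0.848 to 2.05% in FANCJ KO cells. For double KO cells the share of all genes ran from 13.8 to 20.3% against DHX36 KO cells and from 29.6 to 37% against FANCJ KO cells. For the interaction the share of all genes ran from 6.79 to 8.2%. The FANCJ KO count was 1 with no expression filter, with a replicate block, with only the 2 genotypes and with thinned counts. In these 4 settings 1.89, 1.83, 1.4 and 1.86% of all genes changed in FANCJ KO cells. With library totals alone the double KO count was 19 against wild type (33.8% of all genes) and 10 against FANCJ KO cells (37% of all genes), and the DHX36 KO count 14 (23.9% of all genes). DESeq2 gave 22, 2 and 32 changed members for DHX36 KO, FANCJ KO and double KO cells against wild type. With DESeq2 22.8, 2.62 and 31.7% of all genes changed. Leaving out 1 library, the median log2 fold change ran from -0.24 to -0.12 (large) and -0.24 to -0.15 (small) in double KO cells, -0.21 to -0.15 and -0.20 to -0.10 in DHX36 KO cells, and -0.11 to -0.013 and -0.080 to 0.0033 in FANCJ KO cells. Without mitochondrially encoded genes in the total, the members' mean share was 8.60% in double KO cells, 8.58% in DHX36 KO cells, 8.94% in FANCJ KO cells and 9.30% in wild type. The cause of these shifts was not tested.

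Signs turned only in members that had not passed the test. With library totals alone the log2 fold change was 0.0035 for Rpl39 and 0.00012 for Rps27l in DHX36 KO cells, and 0.0020 for Rps27l and 0.016 for Rpl7l1 in double KO cells. With no filter Rpl39 stood at 0.0062 in FANCJ KO cells. Leaving out 1 library, the double KO ranges were -0.018 to 0.22 for Rpl10, -0.094 to 0.020 for Rpl22, -0.064 to 0.019 for Rpl7l1 and -0.10 to 0.032 for Rps27l. The DHX36 KO ranges were -0.033 to 0.074 for Rpl22, -0.14 to 0.074 for Rpl39 and -0.11 to 0.023 for Rps27l. The FANCJ KO ranges were -0.17 to 0.0026 for Rpl11, -0.072 to 0.041 for Rpl22, -0.074 to 0.0087 for Rpl36a, -0.10 to 0.11 for Rpl39, -0.60 to 0.0065 for Rps27 and -0.022 to 0.12 for Rpsa. Over named members and alternatives, 1774 values kept direction and side of the threshold, 102 lost a call, 3 gained one and 27 turned sign. Replicate numbers do not pair the samples: same-numbered libraries of different genotypes had correlated deviations of -0.083 to 0.057, over 0.1 in 0 of 18 pairs, and 2 of 12 libraries were closest to their own number. With a replicate block the counts were 19, 1 and 28 for the DHX36, FANCJ and double knockouts against wild type, 9 and 16 for double KO cells against the DHX36 and FANCJ knockouts, and 4 for the interaction. The shares of all genes were, in the same order, 23.5, 1.83 and 33.4%, 18.7 and 35.9%, and 8.14%. Low counts limit Rpl3l and Rps27, and for Rps27 the assignment of reads shared with Rps27rt is not stated.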

Other observations

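Mitochondrial ribosomal proteins are a separate set, encoded in the nucleus and used only inside mitochondria. All 78 were tested. Of them 19.2% changed in double KO cells and 16.7% in DHX36 KO cells, below the 33.9% and 24.4% of all genes that changed. In FANCJ KO cells 2.07% of all genes changed. In double KO cells 2 rose and 13 fell (median log2 fold change -0.051), in DHX36 KO cells 6 rose and 7 fell (median -5.71e-06), and in FANCJ KO cells none passed the test in edgeR and 10 had an unadjusted p under 0.05 (median -0.078). Mrps21, a protein of the small mitochondrial subunit, measured 63.5, 66.9 and 61.4 CPM in double KO cells, 73.3, 76.7 and 77.7 CPM in DHX36 KO cells, 101, 88.4 and 105 CPM in FANCJ KO cells and 102, 102 and 116 CPM in wild type. Both genotypes lacking DHX36 lay below wild type without overlap, at -0.74 (adjusted p = 1.57e-06) in double KO cells and -0.49 (adjusted p = 0.000384) in DHX36 KO cells. Mrps25, of the same subunit, went the other way in DHX36 KO cells, at 0.73 (adjusted p = 0.0003), and stood at 0.044 (adjusted p = 0.831) in double KO cells.

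The 6 members with a G-quadruplex motif in the transcript were Rpl12, Rpl18, Rpl26, Rpl38, Rps10 and Rps19. Of these 4 fell in double KO cells (median log2 fold change -0.27), where 24 of the 77 members without a motif fell (median -0.18). None of the 6 passed the test in DHX36 KO cells (median -0.18), where 19 of the 77 fell (median -0.16). None passed in FANCJ KO cells, where the median was -0.14 with a motif and -0.05 without. Of all genes tested, 17.3% fell in double KO cells and 11.6% in DHX36 KO cells, and 2.07% changed in FANCJ KO cells. The difference between members with and without a motif was not tested, and 6 members are few.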
